A study of Mus musculus with 8 samples.

Results

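The genes described here are 10 regulators of mitochondrial number and shape, chosen by name: Ppargc1a, Ppargc1b, Esrra, Nrf1, Tfam, Ppara, Opa1, Mfn1, Mfn2 and Fis1. They are 10 of the 22180 genes that the array names, and each has 1 probe set. RNA of whole, snap-frozen kidney from mice aged 2 months was measured on 8 whole-transcript arrays, 1 per mouse. There were 2 wild type mice, 3 Col4a3-/- mice (the single mutant) and 3 Col4a3-/-OPN-/- mice (the double mutant). The Col4a3 deletion is shared by both mutant groups, and the osteopontin deletion is the only difference between them that the labels give. The Col4a3 product is part of the collagen scaffold of the glomerular filter, and mice without it are a model of Alport syndrome. Osteopontin is a secreted protein of injured tubules. The strain and the sex of the mice are not given in the labels used here, and nothing in them says whether mice of a group were littermates. P-values measure only the spread between these mice.

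Kidney tubules, above all the proximal tubule, are packed with mitochondria that burn fatty acids to power transport. PGC-1α (Ppargc1a) and PGC-1β (Ppargc1b) are coactivators that bind transcription factors, among them ERRα (Esrra), NRF1 (Nrf1) and PPARα (Ppara), and raise transcription of nuclear genes for respiration and fat oxidation. TFAM (Tfam), made in the nucleus, packages and transcribes mitochondrial DNA. Mitochondria also fuse and divide: MFN1 and MFN2 join outer membranes, OPA1 joins inner membranes and holds the cristae, and FIS1 is an outer-membrane protein linked to division.

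The promoters of these genes were read first, because the regulators are wired to each other in textbook accounts (NRF1 and the ETS factor GABPA at Tfam, for example). Windows of 300 bases (250 before and 50 after the start) at RefSeq start sites on the mouse assembly GRCm38.p6 were read for 9 of the 10 genes. There were 13 windows in all, and the promoter of Ppargc1b was left out of the search. Both strands were searched for the NRF1 palindrome, the ETS motif of GABPA (CCGGAAGT), the ERRα motif (TNAAGGTCA), the cyclic AMP element (TGACGTCA) and the direct repeat bound by PPARα. The NRF1 and PPARα motifs are given by name alone. A match was found at 5 of the 9 genes. The windows of Tfam, Ppara and Ppargc1a lie wholly inside the gene spans given below, so these starts are not the outermost ones. The starts of Opa1, Mfn1 and Esrra also lie inside their spans, though their windows reach past the outer end. Motif positions are counted from the starts used. The 30 bases around the match at 1 start of each gene are shown on the gene's strand, with the motif in capitals.
Opa1: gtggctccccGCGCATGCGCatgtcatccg
Ppara: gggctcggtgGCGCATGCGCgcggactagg
Tfam: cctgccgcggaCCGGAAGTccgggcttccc
Mfn1: gatccgaagcgCCGGAAGTagccgccccta
Fis1: ggaggcaccacCCGGAAGTtcaggcttccc
The NRF1 motif lies at Opa1 (chr16:29579265-29579294, plus strand), with its first base at position -59 from the start, and at Ppara (chr15:85735735-85735764, plus strand) at -31. The ETS motif lies at Tfam (chr10:71238073-71238102, minus strand) at -47, at Mfn1 (chr3:32529427-32529456, plus strand) at -44 and at Fis1 (chr5:136953246-136953275, plus strand) at -18. A further Fis1 start has the ETS motif 20 bases inside the transcript (chr5:136962085-136962114). Over all 32851 RefSeq windows, the NRF1 motif occurs in 6.23% and the ETS motif in 3.89%, the cyclic AMP element in 1.79%, the ERRα motif in 1.28% and the PPARα element in 0.0396%. No searched motif is in the windows of Ppargc1a, Esrra, Nrf1 and Mfn2. The window of Ppargc1a (chr5:51567676-51567975) lies inside a gene span that ends at 52115853, and no window was read at that outer end. A match describes letters and was not tested as a binding site.

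Levels are log2 values as deposited, with array medians between 5.18 and 5.25 over all probe sets. Testing was limited to genes whose mean over the 8 arrays exceeded a log2 value of 6.64, which is the 75th percentile over probe sets. This left 7145 genes and 7 of the 10 members, while Ppargc1b, Nrf1 and Fis1 lay below it. The defining kidney markers were present: Slc34a1, the phosphate carrier of the proximal tubule, measured between 11.83 and 12.87 on all arrays, and no marker of fat, skeletal muscle, adrenal gland or lymphocytes passed the filter. Of 7 liver markers 1 passed, Ttr, at 8.80 to 11.61. In bulk tissue, fewer cells of a type and less RNA per cell cannot be told apart.

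Sex and the male mutant arrays touch every result. Sex was read from Xist and Y-linked genes: both wild type mice, single mutant 2 and double mutant 3 were male, and single mutants 1 and 3 and double mutants 1 and 2 were female. No wild type female was measured, so each comparison with wild type is given without and with a term for sex, which is taken as equal in all groups and estimated from the mutants alone, with 1 male in each. In addition, single mutant 2 stood apart from its group. Over the tested genes it correlated at 0.87 and 0.84 with single mutants 1 and 3, which correlated at 0.96 with each other, and its correlation with double mutant 3, also a male, was 0.95. Double mutant 3 stood apart too, at 0.90 and 0.91 with double mutants 1 and 2, which correlated at 0.96 with each other. Within the mutants, being male cannot be told apart from being one of these 2 mice.

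Without the sex term no member was called in any comparison. The unadjusted 95% interval lay below 0 for Tfam in the single (-0.71 to -0.07) and double mutant (-0.79 to -0.15). It also did for Opa1 in the double mutant (-0.95 to -0.07). With the sex term, Ppargc1a, Opa1 and Tfam were called lower than wild type in the single mutant and in the double mutant. Esrra, Ppara, Mfn1 and Mfn2 did not pass. The 3 of 7 tested members called lower in the single mutant stand beside 19.9% of all 7145 genes, and the 3 of 7 in the double mutant beside 17.8%. No member was called higher, against 7.31% and 6.4% of all genes. Calls are adjusted p-values under 0.05 in limma, adjusted by Benjamini-Hochberg over the 7145 genes. Without the sex term the whole array gave 0.014% higher and 0.014% lower in the single mutant and 0.056% and 0.028% in the double mutant. Both comparisons use the same 2 wild type mice, so they are not independent of each other.

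**Figure D1:**
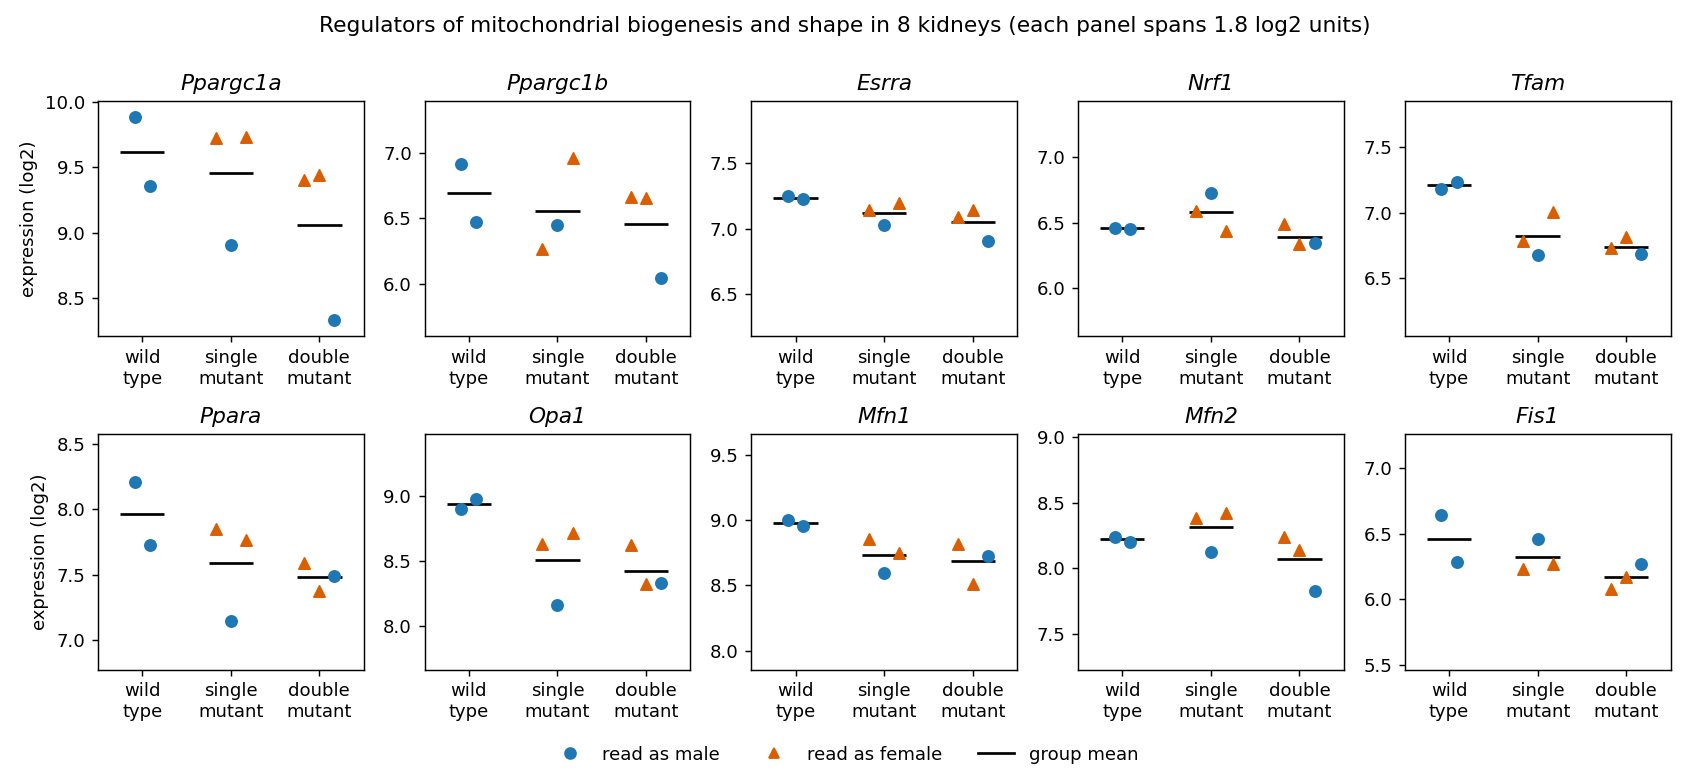
Log2 value of each of the 10 genes (vertical axis, 1 panel per gene) on each of the 8 arrays, grouped by genotype, with the sex read from the array marked by symbol and the group mean as a bar. Ppargc1a spans the widest range, 1.55 log2 units, with the male of each mutant group lowest, while all 6 mutant arrays lie below both wild type arrays for Esrra, Tfam, Opa1 and Mfn1.

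Ppargc1a (chr5:51454249-52115853), the inducible coactivator of mitochondrial biogenesis, had log2 values of 9.88 and 9.35 in wild type, 9.72, 8.90 and 9.73 in single mutants 1 to 3 and 9.40, 9.44 and 8.33 in double mutants 1 to 3. The groups overlapped: the 4 female mutants lay within the wild type range, and the 2 male mutants were below both wild type males. Group means were 9.62 ± 0.37 (SD, n = 2), 9.45 ± 0.48 (SD, n = 3) and 9.06 ± 0.63 (SD, n = 3). The plain differences from wild type were -0.17 (SE 0.40, adjusted p = 0.813 in limma) in the single mutant and -0.56 (SE 0.40, adjusted p = 0.433) in the double mutant. With the sex term they were -0.80 (SE 0.20, adjusted p = 0.0262) and -1.20 (SE 0.20, adjusted p = 0.0112), or an estimated 57.3% and 43.6% of the wild type level. The plain differences amount to 89.1% and 67.8% of it. Among the 4 males alone, with no test, they were -0.72 and -1.28.

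The Ppargc1a call in the double mutant passed under all 12 other settings of the sex-term fit, with adjusted p from 0.0103 to 0.0486 in limma. The highest came without double mutant 3. The double mutants left there, at 9.40 and 9.44, are female and within the wild type range. That call rests on the sex difference among the single mutants. The call in the single mutant passed under 5 of 12. It did not pass after cyclic loess (adjusted p = 0.0590) or with no filter (0.0633), nor with the replicate number as a block (0.0726), nor without wild type 1 (adjusted p = 0.0791), wild type 2 (0.0574), single mutant 2 (0.110) or double mutant 3 (0.0508), where its difference ran from -0.54 to -1.07. Ppargc1a was also the 1 of 7 tested members that differed between the sexes of the mutants. Females averaged 9.57 and males 8.62, a female minus male difference of 0.96 (SE 0.16, adjusted p = 0.0156 in limma), where 8.22% of all genes were called higher and 1.97% lower in females. Whether the genotype difference is equal in the sexes could be tested only between the mutants, and there the interaction was 0.26 (SE 0.32, adjusted p = 0.805).

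Ppargc1b (chr18:61291445-61400756), the second PGC-1 coactivator, was below the filter and its values are a description. It measured 6.91 and 6.47 in wild type, 6.27, 6.45 and 6.96 in the single mutants and 6.67, 6.65 and 6.04 in the double mutants. The groups overlapped, and the lowest array was double mutant 3, which was also lowest for Ppargc1a.

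Among the transcription factors, Esrra (chr19:6910977-6922048), an orphan nuclear receptor that works with PGC-1α, varied least of all 10 genes, with a range of 0.34. It measured 7.25 and 7.22 in wild type, 7.14, 7.03 and 7.20 in single and 7.09, 7.15 and 6.91 in double mutants. All mutants were below both wild type arrays, by small amounts. The differences were -0.12 (SE 0.13, adjusted p = 0.595 in limma) and -0.19 (SE 0.13, adjusted p = 0.421), and -0.23 (adjusted p = 0.196) and -0.31 (adjusted p = 0.110) with the sex term. The 95% interval of the last ran from -0.60 to -0.01.

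Ppara (chr15:85734910-85806851), the nuclear receptor that turns on fatty acid oxidation, measured 8.21 and 7.73 in wild type, 7.85, 7.14 and 7.76 in single and 7.59, 7.38 and 7.49 in double mutants. The double mutants were all below wild type, and single mutants 1 and 3 lay between the wild type arrays. The differences were -0.38 (SE 0.24, adjusted p = 0.351 in limma) and -0.48 (SE 0.24, adjusted p = 0.282). They were -0.60 (adjusted p = 0.101) and -0.70 (adjusted p = 0.0701) with the sex term and did not pass. Nrf1 (chr6:30047985-30153458), which activates genes of respiration and mitochondrial protein import, was below the filter. It measured 6.46 and 6.45 in wild type, 6.59, 6.73 and 6.44 in single and 6.49, 6.34 and 6.34 in double mutants, and it was the 1 transcription factor here that was highest in the male single mutant.

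Tfam (chr10:71225468-71238328), the factor that coats mitochondrial DNA, measured 7.18 and 7.24 in wild type, 6.78, 6.68 and 7.01 in single and 6.73, 6.81 and 6.68 in double mutants. Every mutant, of either sex, lay below both wild type arrays. The means were 7.21 ± 0.04 (SD, n = 2), 6.82 ± 0.17 (SD, n = 3) and 6.74 ± 0.07 (SD, n = 3). The differences were -0.39 (SE 0.14, adjusted p = 0.161 in limma) and -0.47 (SE 0.14, adjusted p = 0.118) without the sex term. With it they were -0.49 (SE 0.14, adjusted p = 0.0414) and -0.57 (SE 0.14, adjusted p = 0.0286), or 71.2% and 67.2% of wild type, against 76.4% and 72.2% without it. Females and males of the mutants differed by 0.15 (SE 0.12, adjusted p = 0.411). Leaving out 1 array often took the adjusted p of Tfam past 0.05 while its difference stayed between -0.40 and -0.53 in the single and between -0.53 and -0.66 in the double mutant. The single mutant call was lost without wild type 1 (adjusted p = 0.0953), wild type 2 (0.167), single mutant 1 (0.0607), single mutant 2 (0.271), double mutant 1 (0.0601) or double mutant 2 (0.0722). The double mutant call was lost without wild type 1 (0.0747), wild type 2 (0.130), single mutant 2 (0.0692) or double mutant 1 (0.0550), 2 (0.0506) or 3 (0.0689).

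Of the fusion genes, Opa1 alone was called. Opa1 (chr16:29579281-29663127), the inner-membrane fusion protein, measured 8.90 and 8.97 in wild type, 8.63, 8.17 and 8.71 in single and 8.62, 8.33 and 8.33 in double mutants. All 6 mutants were below both wild type arrays, and single mutant 2 was lowest. The means were 8.94 ± 0.05 (SD, n = 2), 8.51 ± 0.30 (SD, n = 3) and 8.43 ± 0.17 (SD, n = 3). The differences were -0.43 (SE 0.19, adjusted p = 0.220 in limma) and -0.51 (SE 0.19, adjusted p = 0.183) without the sex term. In the sex-term fit Opa1 was lower by -0.65 (SE 0.17, adjusted p = 0.0305) and -0.73 (SE 0.17, adjusted p = 0.0238), or 63.8% and 60.4% of wild type, against 74.1% and 70.2% without the term. The single mutant call was lost without wild type 1 (adjusted p = 0.0759), wild type 2 (0.140), single mutant 2 (0.296) or double mutant 1 (0.0535), and its difference without single mutant 2 was -0.41. The double mutant call was lost without wild type 1 (0.0649), wild type 2 (0.119) or single mutant 2 (0.0591), where its differences were -0.76, -0.69 and -0.61.

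Mfn1 (chr3:32529443-32579225), which tethers the outer membranes of neighbouring mitochondria, measured 9.00 and 8.96 in wild type, 8.86, 8.59 and 8.75 in single and 8.82, 8.51 and 8.72 in double mutants. Again all mutants lay below wild type, with smaller differences of -0.24 (SE 0.14, adjusted p = 0.320 in limma) and -0.29 (SE 0.14, adjusted p = 0.276). Adding sex to the fit gave -0.29 (adjusted p = 0.206) and -0.34 (adjusted p = 0.155). Mfn2 (chr4:147873586-147904909), which also links mitochondria to the endoplasmic reticulum, measured 8.24 and 8.20 in wild type, 8.39, 8.12 and 8.43 in single and 8.24, 8.14 and 7.83 in double mutants. Its female single mutants were above both wild type arrays and its male mutants below them. The single mutant differed by 0.09 (SE 0.17, adjusted p = 0.751) without and -0.12 (SE 0.13, adjusted p = 0.484) with the sex term, so the direction turned. The double mutant differed by -0.15 (adjusted p = 0.610) and -0.37 (adjusted p = 0.0713). The differences between the fusion genes themselves were not tested.

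Fis1 (chr5:136953275-136966234), the division-linked protein, was below the filter. It measured 6.64 and 6.28 in wild type, 6.23, 6.46 and 6.27 in single and 6.08, 6.17 and 6.27 in double mutants. Its double mutants were all below wild type, but the 2 wild type arrays differed by more than the double mutants did from each other.

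**Figure D2:**
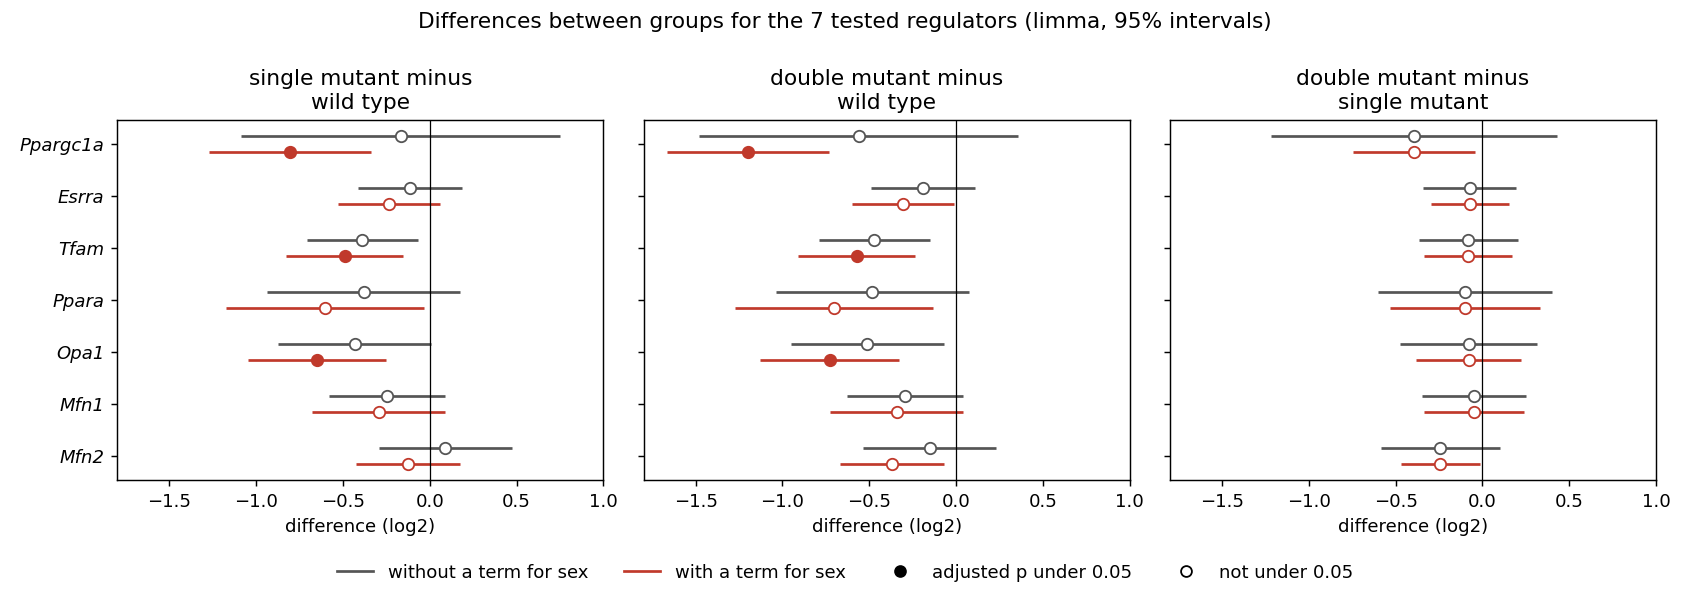
Difference between groups on the log2 scale (horizontal axis) for each of the 7 tested genes in the single and double mutant, and double minus single mutant in the last panel, with 95% intervals, from the limma fits without and with a term for sex; filled points have an adjusted p under 0.05. With the sex term the intervals of Ppargc1a, Tfam, Opa1 and Ppara lie below 0 in both mutants, the first 3 genes being called. Those of Esrra and Mfn2 do so in the double mutant. Without the sex term the interval of Tfam lies below 0 in both mutants and that of Opa1 in the double mutant, with no call. Ppargc1a moves most between the fits, from -0.56 to -1.20 in the double mutant.

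Over the 10 genes, the group means fell in the order wild type, single mutant, double mutant for 8, the exceptions being Nrf1 and Mfn2. Among the tested members this held for 6 of 7, against 23.2% of all tested genes. All 3 single mutants lay below both wild type arrays for 4 of the 7 tested members (29.1% of all genes), and all 3 double mutants for 5 of 7 (28.8%). In the other direction, above wild type, there were 0 of 7 in each mutant, against 19.3% and 17.4% of all genes. All 6 mutants lay below wild type for Esrra, Tfam, Opa1 and Mfn1, 4 of 7 against 21.4%, and above it for none, against 13.1%. The median of all tested genes was itself shifted with the sex term, by -0.15 in each mutant. Relative to that shift Ppargc1a differed by -0.66 and -1.05, Opa1 by -0.50 and -0.58 and Tfam by -0.34 and -0.42. After cyclic loess, which reduced the shift to -0.04 in each mutant, no member passed in the single mutant. Ppargc1a (adjusted p = 0.0172 in limma) and Tfam (0.0426) still passed in the double mutant, and Opa1 did not (0.0535).

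What loss of osteopontin does in the Col4a3-/- kidney is asked by setting the double mutant against the single. No member differed in limma, with or without the sex term, and neither did any of the 7145 genes (0% higher and 0% lower). Unadjusted p was under 0.05 for 104 genes, none of them a member, and with the sex term for 273, of which Ppargc1a and Mfn2 were members. The mean was lower in the double mutant for 10 of 10 genes and 7 of 7 tested, where 49.6% of all genes were lower. Without the sex term every 95% interval held 0. Ppargc1a differed by -0.39 (SE 0.36, 95% interval -1.22 to 0.43), Mfn2 by -0.24 (SE 0.15, -0.59 to 0.10), Ppara by -0.10 (SE 0.22, -0.60 to 0.40), Tfam by -0.08 (SE 0.12, -0.37 to 0.20), Opa1 by -0.08 (SE 0.17, -0.47 to 0.32), Esrra by -0.07 (SE 0.12, -0.34 to 0.20) and Mfn1 by -0.05 (SE 0.13, -0.35 to 0.25). The sex term left these differences as they were and narrowed the errors, to intervals of -0.75 to -0.04 for Ppargc1a (SE 0.15, adjusted p = 0.993 in limma) and -0.47 to -0.02 for Mfn2 (SE 0.10, adjusted p = 0.993), which lie below 0, and the other 5 intervals held 0. The 2 mutant groups overlapped for 7 of 7 tested members, where 2.02% of all genes were higher and 3% lower without overlap. The order between the mutants turned between the males for Ppara, Opa1, Mfn1 and Tfam, where double mutant 3 minus single mutant 2 was 0.34, 0.16, 0.13 and 0.0049. Of the tested members, 7 of 7 had their lowest single mutant value in the male, against 46.6% of all genes, and 4 of 7 had their lowest double mutant value in the male, against 55.5%. No interaction of sex and genotype was called for any of the 7145 genes in limma. The largest among the members was Ppara, at -0.67 (SE 0.32, unadjusted p = 0.0758, adjusted p = 0.454).

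The wider network was read from 6 lists of genes around the members. The counts are of the sex-term fit, since without that term 0 genes of these lists passed. The fit was thus chosen by its outcome, so the counts are a description of that fit. Of 18 tested partners and modifiers of PGC-1 and PPARα, 3 were lower in the single and 4 in the double mutant, close to the 19.9% and 17.8% of all genes, with medians of -0.17 and -0.22. They included Prkaa2, a catalytic subunit of the energy sensor AMPK, by -1.35 and -1.26, and Sirt3, a mitochondrial deacetylase, by -0.81 and -0.97. Hnf4a, a nuclear receptor of the proximal tubule, was lower by -0.63 and -0.76, and Gabpa, whose motif stands at the Tfam, Mfn1 and Fis1 starts above, by -0.58 in the double mutant.

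Of 7 tested genes that copy and transcribe mitochondrial DNA, 4 were lower in each mutant, beside 19.9% and 17.8% of all genes. Their medians were -0.49 and -0.46 against -0.15 over all genes. Tfb2m, the partner of TFAM at mitochondrial promoters, was lower by -0.94 and -1.02, and Tfb1m, a ribosomal RNA methylase, by -0.89 and -0.91. Tfb2m measured 7.33 and 7.47 in wild type, 6.91, 6.57 and 6.95 in single and 6.95, 6.97 and 6.27 in double mutants, with no overlap. Top1mt, the mitochondrial topoisomerase, was lower by -0.49 and -0.46. Ssbp1 was lower in the single mutant by -0.57, and Polrmt, the mitochondrial RNA polymerase, in the double mutant by -0.48.

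Of 21 other genes of fusion, fission and cristae, 9 were lower in the single and 8 in the double mutant. Beside them, 19.9% and 17.8% of all genes were lower. The list medians were -0.42 and -0.37. Apool, a cristae-junction protein, was lower by -1.19 and -0.97, Apoo of the same complex by -0.64 and -0.90, Mtfr1l, a fission regulator, by -0.80 and -0.65, and Stoml2, which supports OPA1, by -0.73 and -0.72. Of 14 mitophagy genes, 3 were lower in each mutant, a share near the 19.9% and 17.8% of all genes, with medians of -0.41 and -0.36: Pink1, the kinase that marks damaged mitochondria, by -0.73 and -0.88, Gabarapl1 by -0.80 and -0.68 and Bcl2l13 by -0.67 and -0.64. None of the genes in these lists was called higher.

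Downstream, 25 tested genes of respiration were read (the respiratory chain and its electron donors, with citric acid cycle enzymes such as Cs and Idh3a). Of these, 13 were lower in the single and 10 in the double mutant, beside 19.9% and 17.8% of all genes. Their medians were -0.69 and -0.55. Sdhc, a succinate dehydrogenase subunit, was lower by -1.45 and -1.44, Ndufa9 of complex I by -1.06 and -0.95, and Uqcrc2 of complex III by -1.08 and -0.89. Of 25 PPARα targets, 14 were lower in the single mutant, where 19.9% of all genes were, and 5 in the double mutant, a share near the 17.8% of all genes, with medians of -0.97 and -0.60. Acot2, a thioesterase of fatty acid oxidation, was lower by -2.79 and -1.61, and Acaa2, a thiolase of mitochondrial fat oxidation, by -1.25 and -1.11. Acot2 measured 9.66 and 10.20 in wild type, 9.01, 7.54 and 8.93 in single and 11.16, 9.92 and 7.93 in double mutants, so the single mutants were all below wild type, while the double mutants overlapped both groups and included the highest array of all. Cyp4a12a, a fatty acid hydroxylase known to be male-biased in mouse kidney, was lower by -2.29 and -2.07. Between the mutants 23 of 25 PPARα targets had a higher mean in the double mutant, where 50.4% of all genes had, with a median difference of 0.31 against 0.001 over all genes. Without single mutant 2 that median was 0.10, or 0.28 with the sex term. None was called, and 6 had an unadjusted p under 0.05 with the sex term. The mean of Ppara itself was lower and the means of most of its targets were higher in the double than in the single mutant, and neither difference passed.

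The calls in the single mutant were also read without single mutant 2. The single mutants left are then all female and the wild type mice all male. That comparison rests on the sex difference among the double mutants, so it cannot say which calls were due to this mouse. With the sex term, 0 of 7142 genes then passed in the single mutant in limma, members and lists included. The list medians were then -0.28 for partners, -0.45 for mitochondrial DNA, -0.38 for fusion and cristae, -0.45 for mitophagy and -0.76 for PPARα targets. That of the respiration list went from -0.69 to -0.38. In the double mutant, 1 of 7 members (Ppargc1a) was then called lower. So were 2 of 7 genes of mitochondrial DNA, 4 of 22 of fusion and cristae, 1 of 14 of mitophagy, 6 of 25 of respiration, 3 of 25 PPARα targets and 2 of 17 partners, where 11.7% of all genes were called lower. Without double mutant 3, the double mutant had 3 of 7 members called lower, and 2 of 7, 4 of 21, 4 of 14, 15 of 25, 4 of 25 and 2 of 18 in the lists in the same order, where 12.4% of all genes were called lower. The double mutants left are then all female, so that comparison rests on the sex difference among the single mutants. It likewise cannot say which calls were due to double mutant 3.

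**Figure D3:**
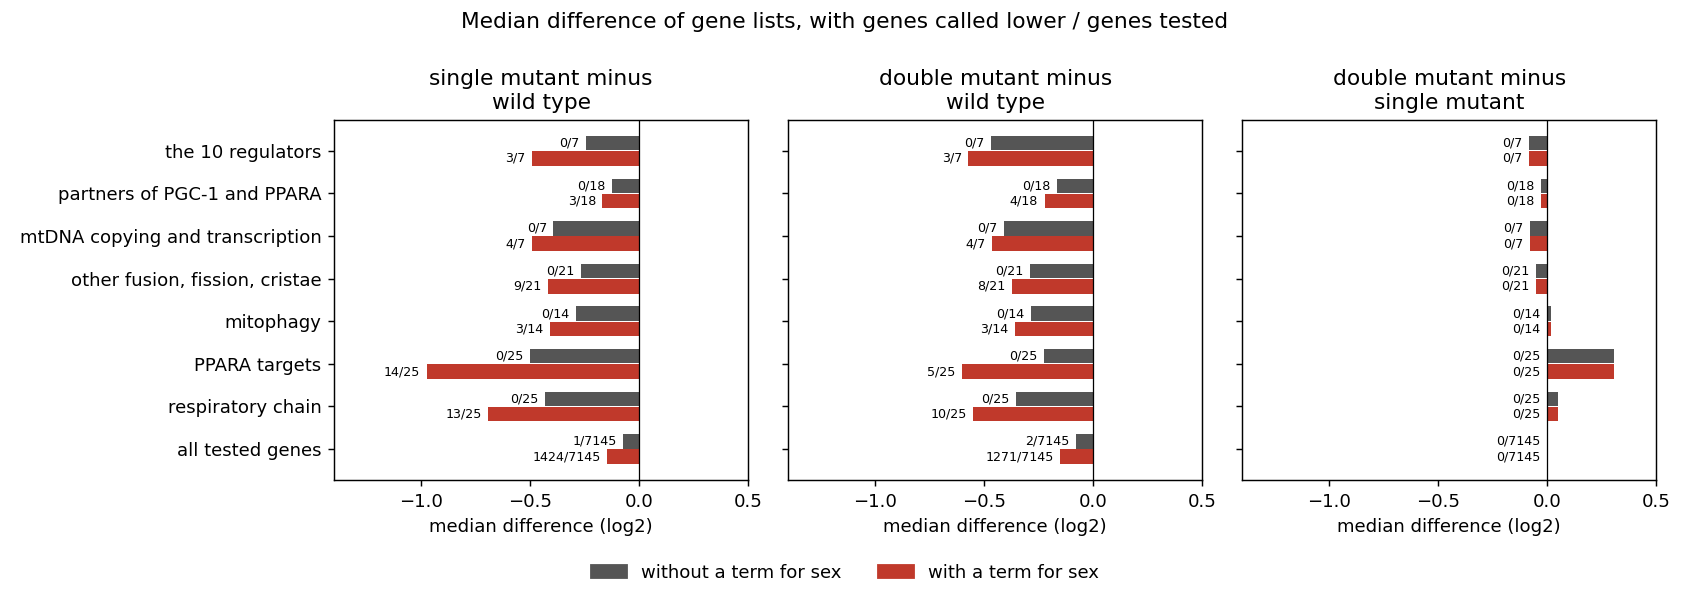
Median difference from wild type on the log2 scale (horizontal axis) of the tested genes of each list, in the single and double mutant, and of double minus single mutant in the last panel, from the fits without and with the sex term, with all 7145 tested genes for reference. Labels give genes called lower over genes tested. With the sex term the PPARα targets and the genes of respiration, labelled respiratory chain and including citric acid cycle enzymes, have medians of -0.97 and -0.69 in the single mutant, against -0.15 over all genes.

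Markers of kidney and infiltrating cell types were read as well, and the counts are of the sex-term fit. In that fit 19.9% and 17.8% of all genes were lower in the single and double mutant, and 7.31% and 6.4% were higher. Without the sex term the only call among these markers was Acta2, a fibroblast and pericyte marker, higher in the double mutant. Over 18 proximal tubule markers, 11 were lower in the single and 10 in the double mutant with the sex term. Their mean log2 level was 11.26 and 11.24 in wild type, 10.50, 9.58 and 10.81 in single and 10.52, 10.26 and 10.36 in double mutants, and the log2 of their summed signal ranged from 15.69 to 15.70, 14.50 to 15.49 and 15.05 to 15.32. Of 9 tested macrophage markers 8 were higher in each mutant, and the 15 measured ones had a log2 summed signal of 10.15 to 10.31 in wild type, 10.99 to 12.66 in single and 11.93 to 12.23 in double mutants. Of 10 tested fibroblast and pericyte markers 8 were higher in each, with summed signals of 11.11 to 11.27, 12.10 to 13.53 and 12.81 to 13.13. Single mutant 2 had the lowest proximal tubule level and the highest macrophage and fibroblast levels of all arrays. The part of these cell types in the members' differences was not tested. Double mutant 3, the lowest array for Ppargc1a, had a proximal tubule level between those of double mutants 1 and 2. That level includes Slc7a13, known to be male-biased, at 9.62 in double mutant 3 against 4.78 and 5.01 in double mutants 1 and 2. It measured 11.05 and 11.20 in wild type, and 4.89, 9.18 and 5.30 in single mutants 1 to 3. Over the other 17 markers, a choice made after the values were seen, the means of double mutants 1 to 3 were 10.86, 10.57 and 10.41, with double mutant 3 lowest of its group. Those of wild type were 11.28 and 11.24, and those of single mutants 1 to 3 were 10.83, 9.60 and 11.13. Female single mutant 3 was thus closer to wild type than in the full list. Double mutant 3 was also the lowest of all 8 arrays for the mean of the loop of Henle and distal tubule (8.46), collecting duct (7.17), podocyte (6.75) and endothelial (8.12) markers. In the sex-term fit, 2 of 9 tested collecting duct markers were lower in the single mutant, a share near the 19.9% of all genes, and 3 in the double mutant. In each mutant 9 of 9 differences were below 0 in that fit, with medians of -0.56 and -0.89 against -0.15 over all genes. Without the sex term 5 of 9 and 8 of 9 were below 0, with medians of -0.09 and -0.26. Of 8 tested loop and distal tubule markers 3 were lower in each with the sex term, with medians of -0.28 and -0.55. Without it their medians were 0.12 and -0.06. Over all genes the medians without it were -0.07 and -0.08.

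**Figure D4:**
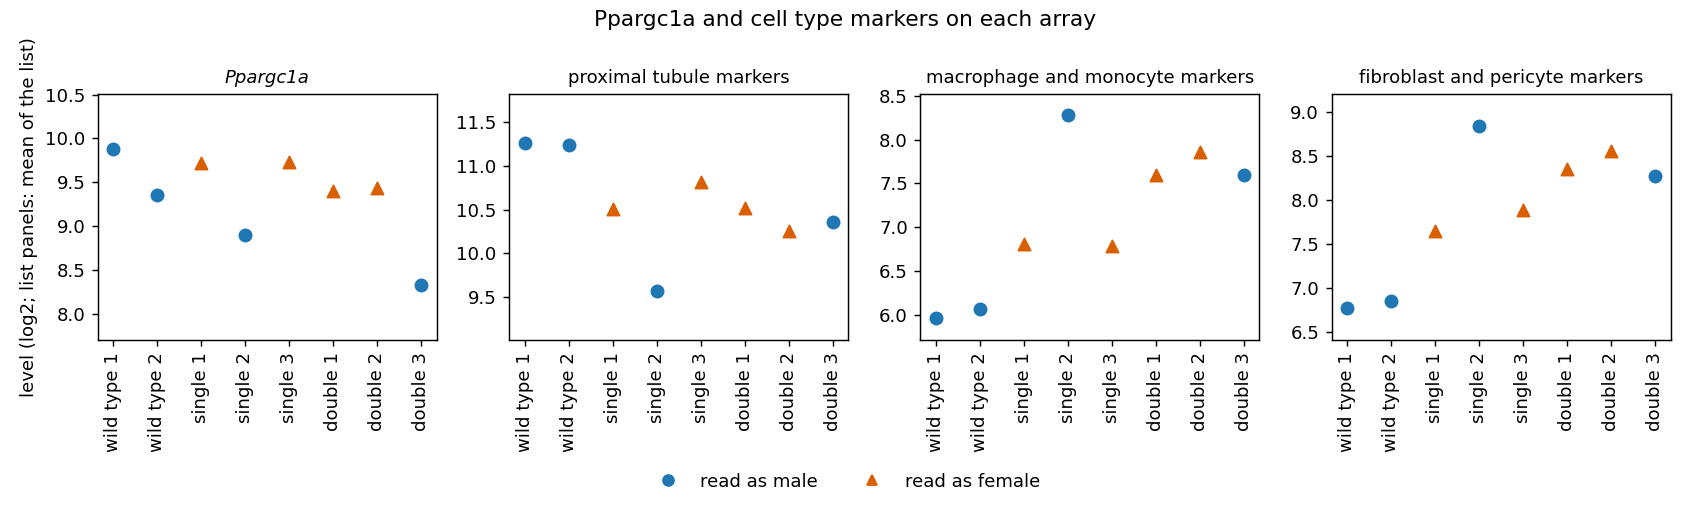
Log2 level of Ppargc1a and mean log2 level of the proximal tubule, macrophage and fibroblast marker lists (vertical axes) on each of the 8 arrays (horizontal axis), with the sex read from the array marked by symbol. Single mutant 2 has the lowest proximal tubule mean, 9.58, and the highest macrophage and fibroblast means, 8.28 and 8.85.

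The genes whose pattern over the 8 arrays was most like that of Ppargc1a were found by the mean absolute difference of log2 values after each gene was centred on its own mean. They were Slc5a6, a vitamin transporter, at 0.09, Slc9a2, a sodium-proton exchanger, at 0.10, Cd300lg at 0.12, Rap1gap at 0.13 and Klhl3, a ubiquitin ligase adaptor of the distal tubule, at 0.14. The median over all tested genes was 0.39. Slc5a6 measured 7.21 and 6.80 in wild type, 7.28, 6.42 and 7.22 in single and 6.91, 6.80 and 6.13 in double mutants. Like Ppargc1a, it was low in both male mutants and at or near the wild type level in female mutants. That likeness follows from how it was picked.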

How the data were processed

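The deposited values are on a log2 scale and cover 33793 probe sets on each array. The scale was read from the values, from 4.20 to 13.43, and the authors' normalization of them is not given in the sources here. The labels name a FlashTag labelling kit, but the probe sets are those of a whole-transcript gene array. Gene names come from the platform annotation: 23521 probe sets name 1 gene, 1814 several and 8458 none. Of several probe sets for a gene, the brightest on average was used. Precision is limited by there being 8 arrays.

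All 3 groups entered a single linear model in R 4.3.3, fitted by lmFit and eBayes of limma 3.58.1. Residual degrees of freedom were 5, or 4 with the sex term and 3 with the interaction. The p-values are two-sided. Members and lists were chosen with earlier results of these data known. The text names all members, up to 4 called genes per list and direction by size, defining markers, and the 5 genes most like Ppargc1a. The fit was tested on simulated data. The alternatives were other filters, normalizations, variance models, array weights, samples in the fit, the replicate number as a block and leaving out each array. Gene positions and promoters are RefSeq's on GRCm38.p6. Osteopontin's own gene was not analysed here, so that deletion was not checked. Python 3.11.15 with matplotlib 3.10.9 made the plots.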

Additional observations from a re-analysis of the deposited data

How the results depend on the processing

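Among 700 values of the 7 tested genes under other settings, 629 kept their direction and their side of the threshold, 30 lost and 13 gained a call, 20 turned sign and 8 values with no test moved by more than the spread. For the single mutant against wild type, without the sex term, genes called higher and lower numbered 1 and 1. They were 2 and 5 with no filter, 289 and 518 with array weights, 0 and 0 in a fit of only these 2 groups, 522 and 1424 with the sex term (3 members lower), and from 0 to 2 and from 0 to 3 when 1 array was left out. For the double mutant they numbered 4 and 2. They were 600 and 672 with array weights (2 members lower), 193 and 151 in a fit of only these 2 groups, 457 and 1271 with the sex term (3 members lower), and from 0 to 272 and from 0 to 301 when 1 array was left out. The count of lower genes in the double mutant was 7 with no filter, 11 at the 50th percentile, 1 after quantile normalization, 1 after cyclic loess and 4 with an intensity trend and robust prior.

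With the sex term and cyclic loess, 814 genes were higher in the single mutant, with 0 members lower, and 709 were higher in the double mutant. With the sex term and no filter, 1 member was lower in the single and 5 in the double mutant. Leaving out 1 array with the sex term gave 0 to 709 higher and 0 to 1437 lower genes and 0 to 3 lower members in the single mutant. In the double mutant it gave 36 to 565 higher and 28 to 1194 lower genes and 1 to 3 lower members. The interaction called 16 genes higher after median centring.

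Values that turned sign in the single mutant were Ppargc1a, at 0.035 with array weights and from -0.43 to 0.11 when 1 array was left out, and Mfn2, at -0.12 with the sex term, -0.10 in males alone and 0.0085 with the sex term and cyclic loess. Between the mutants, males alone gave 0.0049 for Tfam, 0.34 for Ppara, 0.16 for Opa1 and 0.13 for Mfn1. Leaving out 1 array gave -0.16 to 0.011 for Tfam, -0.32 to 0.032 for Ppara, -0.25 to 0.026 for Opa1 and -0.12 to 0.038 for Mfn1. With the sex term it gave -0.32 to 0.025 for Ppara, -0.20 to 0.039 for Opa1 and -0.14 to 0.064 for Mfn1. The interaction of Esrra was -0.027 after cyclic loess. The causes were not tested.

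Deviations of same-numbered arrays correlated between -0.58 and 0.26. Mutant arrays numbered 2 and 3 differ in sex between the single and double mutant, so these values cannot show whether the replicate numbers pair mice. With the replicate block, 0 genes were called higher and 0 lower in either mutant. With both the sex term and the replicate block, 2 members were lower in the single and 4 in the double mutant. The call lost in the single mutant was that of Ppargc1a, at -0.71 (adjusted p = 0.0726 in limma).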

Other observations

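Some PPARα targets differed widely between the wild type mice. Pdk4, the kinase that shuts pyruvate out of the mitochondrion, measured 11.12 and 8.20 in the wild type mice, both male, and between 8.43 and 10.90 in the mutants. Cyp4a14, a fatty acid hydroxylase, measured 8.58 and 5.14 in wild type, 11.38, 5.19 and 11.03 in single and 11.87, 11.10 and 6.93 in double mutants, so all 4 female arrays were above all 4 male arrays. Ppara (8.21 and 7.73) and Ppargc1a (9.88 and 9.35) were likewise higher in wild type 1 than in wild type 2, while Tfam, Opa1, Mfn1 and Mfn2 differed there by less than 0.1. Pdk4 and Cyp4a14 were chosen after their values were seen, and no test was made.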
